A study of Arabidopsis thaliana with 10 samples.

Results

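The 42 genes described here encode proteins of the cytosolic ribosome of Arabidopsis thaliana. They come from a given list of gene identifiers whose rule names no measured value, but which was drawn up with earlier results of these data known. All 42 were found among the 34047 genes in the deposited tables. The list holds 22 genes of the large (60S) subunit, 17 of the small (40S) subunit and 3 of the P stalk, an acidic protein complex on the large subunit. All 42 have an entry in the RefSeq annotation used for names, and 23 have a symbol there; AT3G10090 is described there by its OB-fold and not as ribosomal. The other genes are named by identifier and annotated family.

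Transcripts of entire seedlings were sequenced from poly(A) RNA in 5 genotypes of the Col-0 ecotype. Seedlings were 10 days old and had grown at 22 °C under a 16 h photoperiod on agar medium with no treatment. The genotypes were wild type Col, a line homozygous for a 35S-driven IBH1-GFP fusion (IBH1 overexpressor), a homozygous T-DNA insertion line of IBH1 (ibh1 mutant), a line homozygous for a 35S-driven IBL1-GFP fusion (IBL1 overexpressor) and a homozygous T-DNA insertion line of IBL1 (ibl1 mutant). IBH1 and IBL1 are related helix-loop-helix proteins that restrain brassinosteroid-driven cell elongation, and the 35S promoter is active in most tissues, well beyond the cells that use the native genes. Col is described only as wild type, so no GFP control is among the groups. Each genotype has 2 numbered libraries in the labels, whereas the extraction text mentions 3 biological replicates. Nothing states that the libraries came from separate sowings, so p-values may measure technical spread. IBH1 was at 5148 FPKM in its overexpressor, 22.2 FPKM in Col and 6.91 FPKM in the ibh1 mutant. IBL1 was at 201 FPKM in its overexpressor, 7.70 FPKM in Col and 1.87 FPKM in the ibl1 mutant, and also at 1.84 FPKM in the IBH1 overexpressor. Of 4 leaf and root genes, all present in every genotype, RBCS1A lay between 13116 and 14959 FPKM with no call. The leaf antenna gene CAB1 (AT1G29930) was at 23514 FPKM in Col and 12698 to 15437 FPKM in the lines, and was called lower in both overexpressors and the ibl1 mutant in the authors' deposited table (q 0.0306, 0.000661 and 0.0180). The root gene PYK10 was at 1209 FPKM in Col and called higher in the IBL1 overexpressor, at 1636 FPKM (authors' q 6.16e-10, the authors' deposited table). The endodermis gene CASP1 was at 40.3 FPKM in Col and called higher in the ibh1 mutant, at 63.9 FPKM, and the IBL1 overexpressor, at 67.7 FPKM (authors' q 0.00819 and 0.000124, the authors' deposited table). The part of such tissue markers in the values below was not tested.

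Cytosolic ribosomes assemble in the nucleolus from ribosomal RNA and a fixed complement of ribosomal proteins, so cells make the protein subunits in near balance. Arabidopsis encodes nearly every subunit in several genes, whose proteins are often almost identical. Loss of a single gene can give embryo lethality or pointed, narrow leaves, and transcripts of the class are richest in dividing tissue. The TOR kinase pathway promotes ribosome production and acts on S6, a small-subunit protein, through S6 kinase.

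All values below are the authors' deposited ones: FPKM (fragments scaled by transcript length and by the size of the library) with 1 value per genotype, a log2 fold change, turned here to line over Col, and a q-value. The number after ± is the standard error that the authors' statistic implies. A gene is called, and said to rise or fall, where the authors' q is below 0.05. No value per library exists in the tables, and the depth is unknown.

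The 42 genes were among the more abundant transcripts of the seedling. In the authors' deposited table their Col levels ran from 47.1 to 1193 FPKM with a median of 481 FPKM, and 39 of 42 were at 100 FPKM or more. The median of all genes at 1 FPKM or more was 12.8 FPKM. AT5G20290, of the S8e family, was the highest with 1193 FPKM in Col, 1119 FPKM in the IBH1 overexpressor, 1041 FPKM in the ibh1 mutant, 1228 FPKM in the IBL1 overexpressor and 1152 FPKM in the ibl1 mutant in the authors' deposited table. SAC52, the L10 gene, stood at 845, 761, 737, 818 and 791 FPKM in the same order. Neither gene was called in any comparison, and their 5 levels lay within 1.18-fold and 1.15-fold of each other. The lowest were RPL16A at 47.1 FPKM in Col, AT3G10090 (annotated OB-fold-like, a 40S constituent) at 87.7 FPKM and AT3G58700 of the L5P family at 98.1 FPKM.

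The genotypes differed in where they sat for most of the genes. The ibl1 mutant held the lowest of the 5 levels for 29 genes, the ibh1 mutant for 9 and the IBH1 overexpressor for 4. Col was lowest for 0 genes, as was the IBL1 overexpressor. The IBL1 overexpressor held the highest level for 21 genes, Col for 17 and the IBH1 overexpressor for 4. These counts rest on 1 value per genotype and carry no test.

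**Figure D1:**
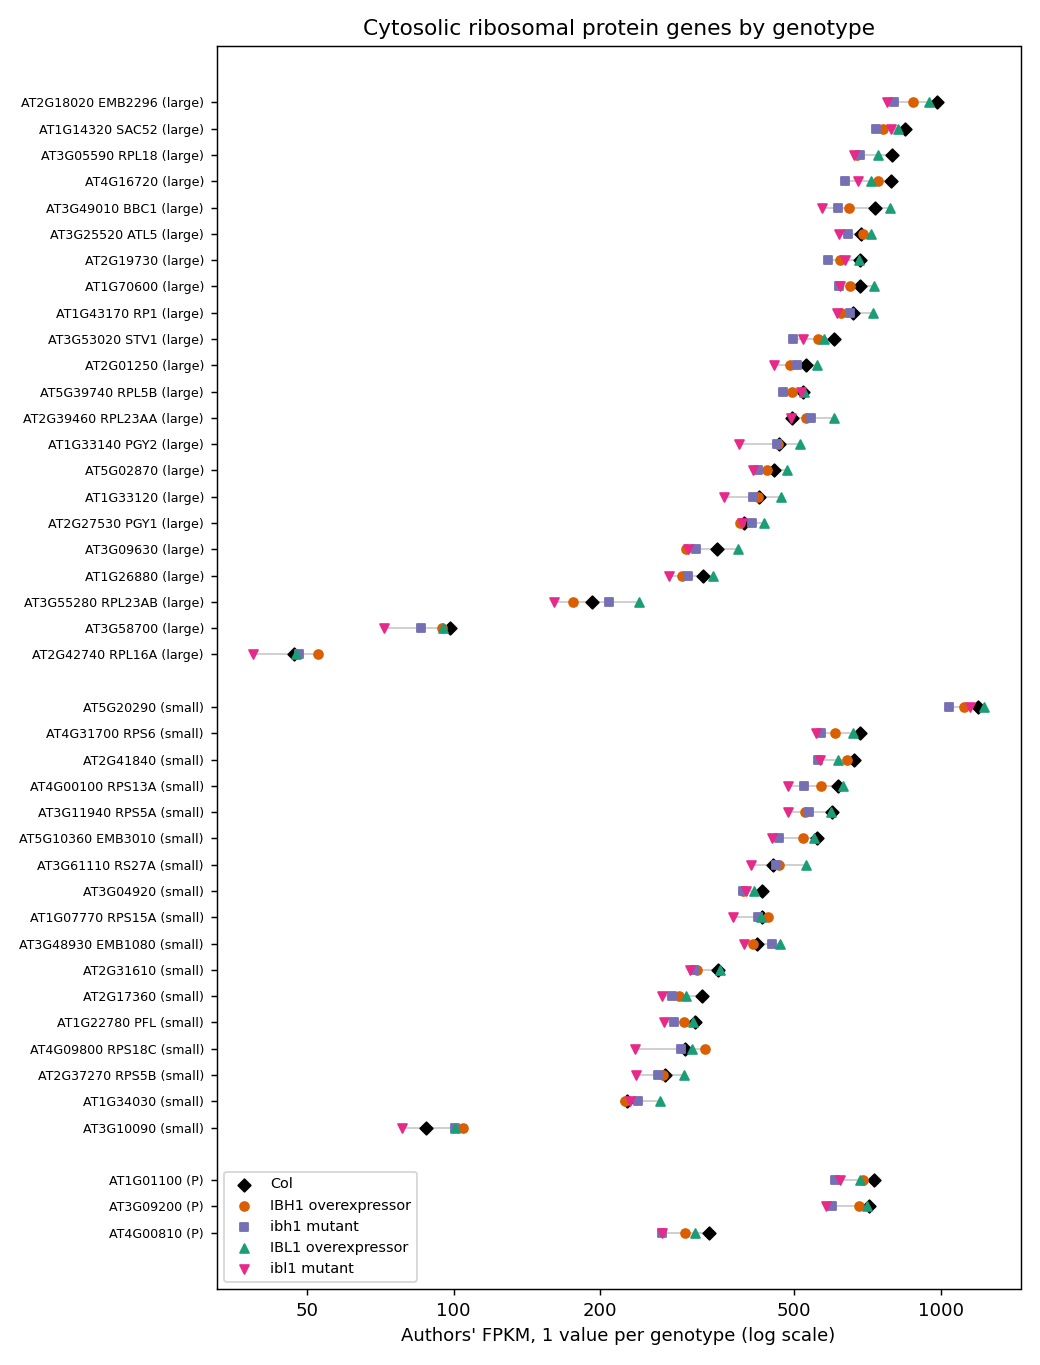
Authors' FPKM of the 42 genes (horizontal axis, log scale, 1 value per genotype, no error shown) with genes grouped as large subunit, small subunit and P stalk and ordered by their Col level. The ibl1 mutant symbol is leftmost for 29 genes and the IBL1 overexpressor symbol is rightmost for 21.

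In the ibl1 mutant, 19 of 41 tested genes fell and 0 rose, against 4.4% of all 20732 tested genes called lower and 1.05% called higher. Among the 1604 tested genes at 100 FPKM or more in Col the share called lower was 28.7%, so highly expressed genes as a class were called far more often, and the members' 46.3% is to be read against that share. That class includes members, and 1064 of its 1615 genes lay at 100 to 300 FPKM, where 4 tested members lay. At 300 to 1000 FPKM lay 33 tested members among 441 genes, and the share called there is not given. The 28.7% is thus not matched to the members' levels. The median log2 fold change of the members was -0.22, that of all tested genes -0.07 and that of genes at 100 FPKM or more -0.17. The median member stood at 86.1% of its Col level, with a range from 73.2% to 101%. By structure, 8 of 21 large-subunit genes, 8 of 17 small-subunit genes and 3 of 3 P-stalk genes fell. At an unadjusted Cuffdiff p under 0.05 the count was 29 of 41, against 16.9% of all genes. After fold changes were centred on the median of genes at 100 FPKM or more in Col, 0 of 41 were called lower, against 1.12% of all genes. After centring on genes at 1 FPKM or more 7 were, against 2.41%. Every called value stayed below 0 under both, as each lay farther from 0 than the median subtracted. These seedlings were sequenced whole, and fewer cells of a type and less RNA per cell cannot be told apart.

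Among large-subunit genes, BBC1 (AT3G49010, chromosome 3, 18166769 to 18168692, TAIR10), which encodes L13, had the smallest q. Its level was 733 FPKM in Col, 648 FPKM in the IBH1 overexpressor, 616 FPKM in the ibh1 mutant, 786 FPKM in the IBL1 overexpressor and 572 FPKM in the ibl1 mutant in the authors' deposited table. The ibl1 mutant was the lowest and the IBL1 overexpressor the highest of the 5. In the authors' deposited table the change in the ibl1 mutant was -0.36 ± 0.07 with q 4.63e-05. EMB2296 (AT2G18020, chromosome 2, 7837102 to 7838304), an embryo-essential gene of the L2 family, was the most abundant large-subunit gene in Col. The authors' deposited table lists it at 983 FPKM in Col, 878 FPKM in the IBH1 overexpressor, 804 FPKM in the ibh1 mutant, 946 FPKM in the IBL1 overexpressor and 776 FPKM in the ibl1 mutant. Both mutants lay below both overexpressors, and Col was highest. It fell by 0.34 ± 0.07 in the ibl1 mutant (authors' q 7.60e-05) and by 0.29 ± 0.09 in the ibh1 mutant (authors' q 0.0299, from the authors' deposited table).

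RPL18, the gene of subunit protein L18, was called in the IBH1 overexpressor and the ibl1 mutant. The authors' deposited table gives 793 FPKM in Col, 673 FPKM in the IBH1 overexpressor, 685 FPKM in the ibh1 mutant, 743 FPKM in the IBL1 overexpressor and 665 FPKM in the ibl1 mutant. All 4 lines were below Col. Its change was -0.25 ± 0.07 in the ibl1 mutant (authors' q 0.0118) and -0.24 ± 0.08 in the IBH1 overexpressor (authors' q 0.0252), from the authors' deposited table. AT4G16720, of the L23/L15e family, was at 791, 743, 638, 719 and 678 FPKM in the order Col, IBH1 overexpressor, ibh1 mutant, IBL1 overexpressor and ibl1 mutant in the authors' deposited table. It was lowest in the ibh1 mutant, and it fell there (-0.31 ± 0.09, authors' q 0.0175) and in the ibl1 mutant (-0.22 ± 0.07, authors' q 0.0359). AT2G01250, of the L30/L7 family, was at 530, 490, 506, 558 and 456 FPKM in that order and fell in the ibl1 mutant (-0.22 ± 0.07, authors' q 0.0459, the authors' deposited table).

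The L5P family genes, whose product (ribosomal protein L11 in the eukaryotic naming) sits beside the 5S ribosomal RNA, were the least abundant large-subunit genes. AT3G58700 was at 98.1 FPKM in Col, 94.8 FPKM in the IBH1 overexpressor, 85.7 FPKM in the ibh1 mutant, 95.1 FPKM in the IBL1 overexpressor and 71.9 FPKM in the ibl1 mutant in the authors' deposited table. The ibl1 mutant was the lowest of the 5, and its change (-0.45 ± 0.14, authors' q 0.0329, the authors' deposited table) was the largest of any member, at 73.2% of Col. The change was not called when centred on genes at 1 FPKM or more or at 100 FPKM or more in Col (adjusted p 0.116 and 0.286, normal test on centred values). Direct tests called no difference of AT3G58700 between the ibl1 mutant and another line. RPL16A, whose protein is 99.5% identical to that of AT3G58700, was at 47.1, 52.7, 48.1, 47.5 and 38.7 FPKM in the same order. In the authors' deposited table its ibl1 value was -0.28 ± 0.20 (q 0.494), with a standard error larger than for most members. The coding sequences share 12.8% of their 50-base windows, so some reads could have been assigned to either gene.

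PGY2 and AT1G33120 (chromosome 1, 12023275 to 12024783 and 12010901 to 12012524, TAIR10) lie close together and encode the same L9 protein of 194 residues. Mutants of PGY2 alter leaf polarity when combined with mutants of AS1. Their coding sequences agree at 580 of 585 bases and share 76.3% of 50-base windows, so the split of reads between them is uncertain. PGY2 was at 465, 463, 462, 514 and 386 FPKM, and AT1G33120 at 425, 422, 412, 470 and 358 FPKM, in the order Col, IBH1 overexpressor, ibh1 mutant, IBL1 overexpressor and ibl1 mutant of the authors' deposited table. Each was lowest in the ibl1 mutant and highest in the IBL1 overexpressor. They fell in the ibl1 mutant by 0.27 ± 0.08 (authors' q 0.0118) and 0.24 ± 0.08 (authors' q 0.0316), the authors' deposited table shows.

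The 8 small-subunit genes called in the ibl1 mutant included both S6 genes, the substrate of S6 kinase. RPS6 (AT4G31700, chromosome 4, 15346072 to 15347727) was at 685 FPKM in Col, 606 FPKM in the IBH1 overexpressor, 568 FPKM in the ibh1 mutant, 660 FPKM in the IBL1 overexpressor and 554 FPKM in the ibl1 mutant in the authors' deposited table. EMB3010 (AT5G10360), the other S6 gene, was at 558, 521, 466, 551 and 450 FPKM in that order. Both had the same order of genotypes, and the authors' deposited table lists changes of -0.31 ± 0.07 in the ibl1 mutant for each, with q 0.000844. The S6 kinase genes S6K1 and S6K2 and TOR itself were not called there.

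RPS5A, whose loss stops embryo development, was at 599, 526, 536, 595 and 487 FPKM in the order Col, IBH1 overexpressor, ibh1 mutant, IBL1 overexpressor and ibl1 mutant (authors' deposited table). RPS5B, its less abundant copy, was at 272, 269, 263, 298 and 237 FPKM. RPS5A fell in the ibl1 mutant (-0.30 ± 0.07, authors' q 0.00178, the authors' deposited table), whereas RPS5B at -0.20 ± 0.09 had an authors' q of 0.187. RPS5B has a larger standard error, and the difference between the copies was not tested. RPS13A, a gene of early leaf development, was at 614, 569, 524, 631 and 486 FPKM and fell by 0.34 ± 0.08 (authors' q 0.000709, the authors' deposited table). RPS15A, at 429, 442, 422, 429 and 374 FPKM, was nearly level except in the ibl1 mutant, where it fell by 0.20 ± 0.06 (authors' q 0.0259, the authors' deposited table). AT2G41840, of the S5 family, fell from 664 to 565 FPKM (-0.23 ± 0.07, authors' q 0.0177) and AT2G17360, of the S4 family, from 323 to 268 FPKM (-0.27 ± 0.08, authors' q 0.0168), both from the authors' deposited table. In the other 3 lines AT2G41840 lay between 559 and 641 FPKM and AT2G17360 between 281 and 301 FPKM, also below Col.

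The 3 S18 genes encode the same protein of 152 residues from different coding sequences. PFL, whose mutant has pointed first leaves, and its copies RPS18C and AT1G34030 agree at 87.1 to 91.1% of coding bases and share no identical 50-base coding window. Read length and the mismatches allowed in alignment are not given, so how well reads were told apart is not known. The first 120 coding bases are shown to make the differing bases visible, from the RefSeq annotation of TAIR10.1, read 5′ to 3′ on the coding strand. Capitals mark the 22 positions at which the 3 genes are not all the same.
PFL: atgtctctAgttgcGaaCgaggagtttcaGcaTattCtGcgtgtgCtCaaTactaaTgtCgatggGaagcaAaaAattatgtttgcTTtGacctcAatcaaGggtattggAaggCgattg
AT1G34030: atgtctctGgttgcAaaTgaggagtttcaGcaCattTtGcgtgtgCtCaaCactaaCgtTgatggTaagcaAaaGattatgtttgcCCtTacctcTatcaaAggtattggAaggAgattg
RPS18C: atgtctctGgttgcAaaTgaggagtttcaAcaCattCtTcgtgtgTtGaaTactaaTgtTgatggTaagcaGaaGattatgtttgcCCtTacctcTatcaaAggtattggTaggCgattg

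The 3 copies did not follow the same order across genotypes. RPS18C was at 299 FPKM in Col, 329 FPKM in the IBH1 overexpressor, 293 FPKM in the ibh1 mutant, 309 FPKM in the IBL1 overexpressor and 235 FPKM in the ibl1 mutant in the authors' deposited table. PFL was at 314, 298, 283, 310 and 270 FPKM, and AT1G34030 at 227, 224, 239, 266 and 231 FPKM. In the authors' deposited table RPS18C fell in the ibl1 mutant (-0.34 ± 0.09, q 0.00630), while PFL was at -0.22 ± 0.09 (q 0.158) and AT1G34030 at 0.02 ± 0.10 (q 0.943), the only member with a value above 0 there. Whether the copies differ from each other was not tested. In RefSeq, RPS18C overlaps AT4G09810 on the opposite strand by 25 bases. The deposited span of RPS18C, however, ends at 6177293, past its RefSeq end at 6175200. What was counted in the added stretch is not known, so the values of RPS18C are less certain.

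**Figure D2:**
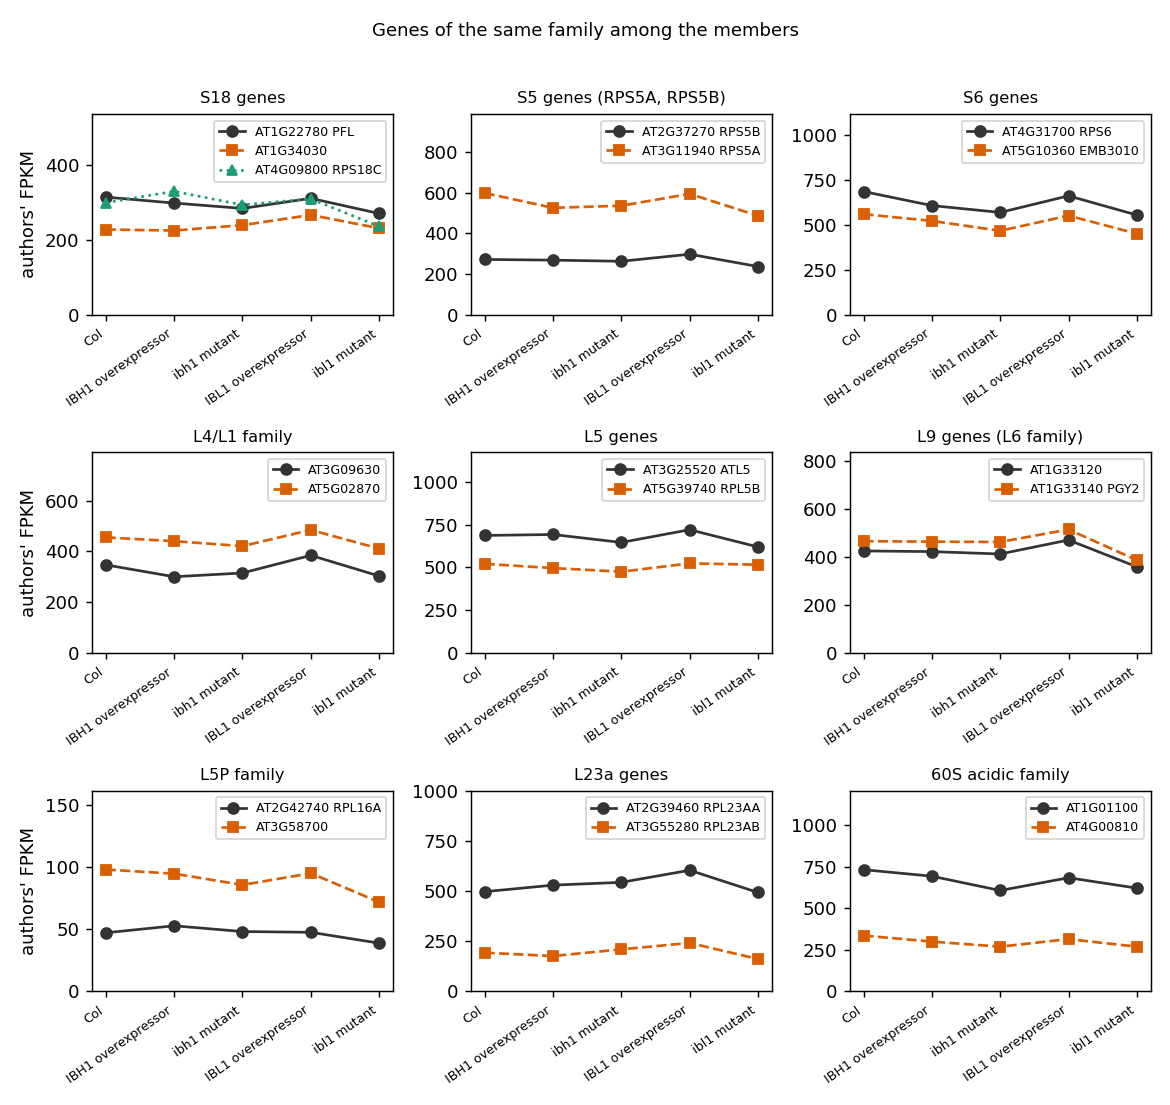
Authors' FPKM (vertical axes, from 0) of the 9 families with more than 1 gene among the 42, across the 5 genotypes, 1 value per genotype with no error shown. RPS18C drops to 235 FPKM in the ibl1 mutant while AT1G34030 stays at 231 FPKM, and PGY2 and AT1G33120 run in parallel.

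The P stalk recruits elongation factors to the ribosome. Its 3 listed genes were all called in the ibl1 mutant, a small count from a list drawn up with earlier results known. Further genes of these families stand among the other cytosolic ribosomal genes below. Their calls in the ibl1 mutant are not given separately, so this count is not read as a trait of the P stalk. AT3G09200, annotated as L10 family and known as the stalk base protein P0, was at 712, 681, 599, 705 and 583 FPKM in the order Col, IBH1 overexpressor, ibh1 mutant, IBL1 overexpressor and ibl1 mutant of the authors' deposited table. AT1G01100 was at 732, 692, 606, 683 and 621 FPKM, and AT4G00810 at 335, 299, 268, 313 and 268 FPKM; both belong to the 60S acidic family. All 3 had both mutants below both overexpressors. In the ibl1 mutant they fell by 0.29 ± 0.07 (authors' q 0.00117), 0.24 ± 0.06 (authors' q 0.00445) and 0.32 ± 0.09 (authors' q 0.0182) in the authors' deposited table. Centred on genes at 1 FPKM or more, only AT3G09200 was still called there (adjusted p 0.0331 by the normal test on centred values). Centred on genes at 100 FPKM or more in Col, none was. In RefSeq, AT3G09200 overlaps the gene PTAC13 on the same strand by 100 bases.

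In the ibh1 mutant 6 of 41 tested genes fell and 0 rose, against 2.04% of all genes called lower and 1.34% called higher; among genes at 100 FPKM or more in Col, 14.5% were called lower. The members' share, 14.6%, was near that of genes at 100 FPKM or more and is not read as a result about ribosomal genes. That class includes members, and 1064 of its 1615 genes lay at 100 to 300 FPKM, where 4 tested members lay. The median of the members was -0.14, that of all genes 0.02 and that of genes at 100 FPKM or more -0.12. At an unadjusted Cuffdiff p under 0.05 the count was 16, against 15.4% of all genes. After centring on genes at 100 FPKM or more in Col the count was 0 at the adjusted threshold, against 0.835% of all genes. The 6 were EMB2296, AT4G16720, STV1, AT2G19730, AT1G01100 and AT4G00810, with 4 large-subunit, 0 small-subunit and 2 P-stalk genes. AT2G19730, of the L28e family, was at 683, 621, 587, 679 and 636 FPKM in the order Col, IBH1 overexpressor, ibh1 mutant, IBL1 overexpressor and ibl1 mutant of the authors' deposited table, and fell in the ibh1 mutant (-0.22 ± 0.05, authors' q 0.000404). STV1, an L24 gene needed for gynoecium patterning and for reinitiation after upstream reading frames, was at 606, 559, 498, 577 and 523 FPKM. It fell in the ibh1 mutant by 0.28 ± 0.09 (authors' q 0.0476, the authors' deposited table). The acidic-family genes had -0.27 ± 0.08 for AT1G01100 (q 0.0230) and -0.32 ± 0.10 for AT4G00810 (q 0.0420) in the authors' deposited table. Both S6 genes were just outside the threshold, RPS6 at -0.27 ± 0.09 (q 0.0520) and EMB3010 at -0.26 ± 0.09 (q 0.0718) in the authors' deposited table.

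In the IBH1 overexpressor 2 of 41 tested genes fell and 0 rose, which was 4.88% of them against 4.19% of all genes called lower and 3.82% called higher; among genes at 100 FPKM or more in Col, 18.3% were called lower. The members' share was near that of all genes and below that of genes of high level. The 2 were RPL18, given above, and AT2G19730 (-0.14 ± 0.04, authors' q 0.0293, the authors' deposited table). The median of the members was -0.08, beside 0.01 for all genes and -0.07 for those at 100 FPKM or more. At an unadjusted Cuffdiff p under 0.05 the count was 8, against 20.2% of all genes. Centring on genes at 100 FPKM or more in Col left 0 at the adjusted threshold, against 3.13% of all genes.

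The IBL1 overexpressor was the only line with members called higher. In it 3 of 41 tested genes rose and 0 fell, against 10.3% of all genes called higher and 3.58% called lower. The members' share of 7.32% was below the former and below the 15.6% called higher at 100 FPKM or more. At that level 21.1% of genes were called lower. The median fold change in this line was 0.12 over genes that reached 1 FPKM in Col and in the line, and -0.00 over genes at 100 FPKM or more in Col. The members' median was 0.01. At an unadjusted Cuffdiff p under 0.05 the count was 10, against 26.3% of all genes. After centring on genes at 1 FPKM or more, 0 members were called higher, against 5.68% of all genes, and 7 lower, against 6.14%. After centring on genes at 100 FPKM or more in Col, the same 3 members were called higher, against 10.7%. The direction of the calls in this line thus depends on the scaling.

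RPL23AB and RPL23AA, whose L23a proteins sit at the exit of the peptide tunnel, were 2 of the 3 called genes. RPL23AB (AT3G55280, chromosome 3, 20500335 to 20501709) was at 192 FPKM in Col, 175 FPKM in the IBH1 overexpressor, 209 FPKM in the ibh1 mutant, 241 FPKM in the IBL1 overexpressor and 161 FPKM in the ibl1 mutant in the authors' deposited table. The ratio of its highest to its lowest level, between the IBL1 overexpressor and the ibl1 mutant, was the largest of any member. RPL23AA (AT2G39460) was at 496, 529, 543, 603 and 493 FPKM in that order. They rose in the IBL1 overexpressor by 0.33 ± 0.08 (authors' q 0.00104) and 0.28 ± 0.07 (authors' q 0.000862) in the authors' deposited table. RS27A, the S27 gene, was at 453, 466, 458, 530 and 408 FPKM and rose by 0.23 ± 0.08 (authors' q 0.0360, the authors' deposited table). Centred on genes at 100 FPKM or more in Col, all 3 were still called (adjusted p 0.000915 for RPL23AB, 0.000738 for RPL23AA and 0.0329 for RS27A, from the normal test on centred values). Centred on genes at 1 FPKM or more, their values were not called. They stayed above 0, as each exceeded the median subtracted.

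**Figure D3:**
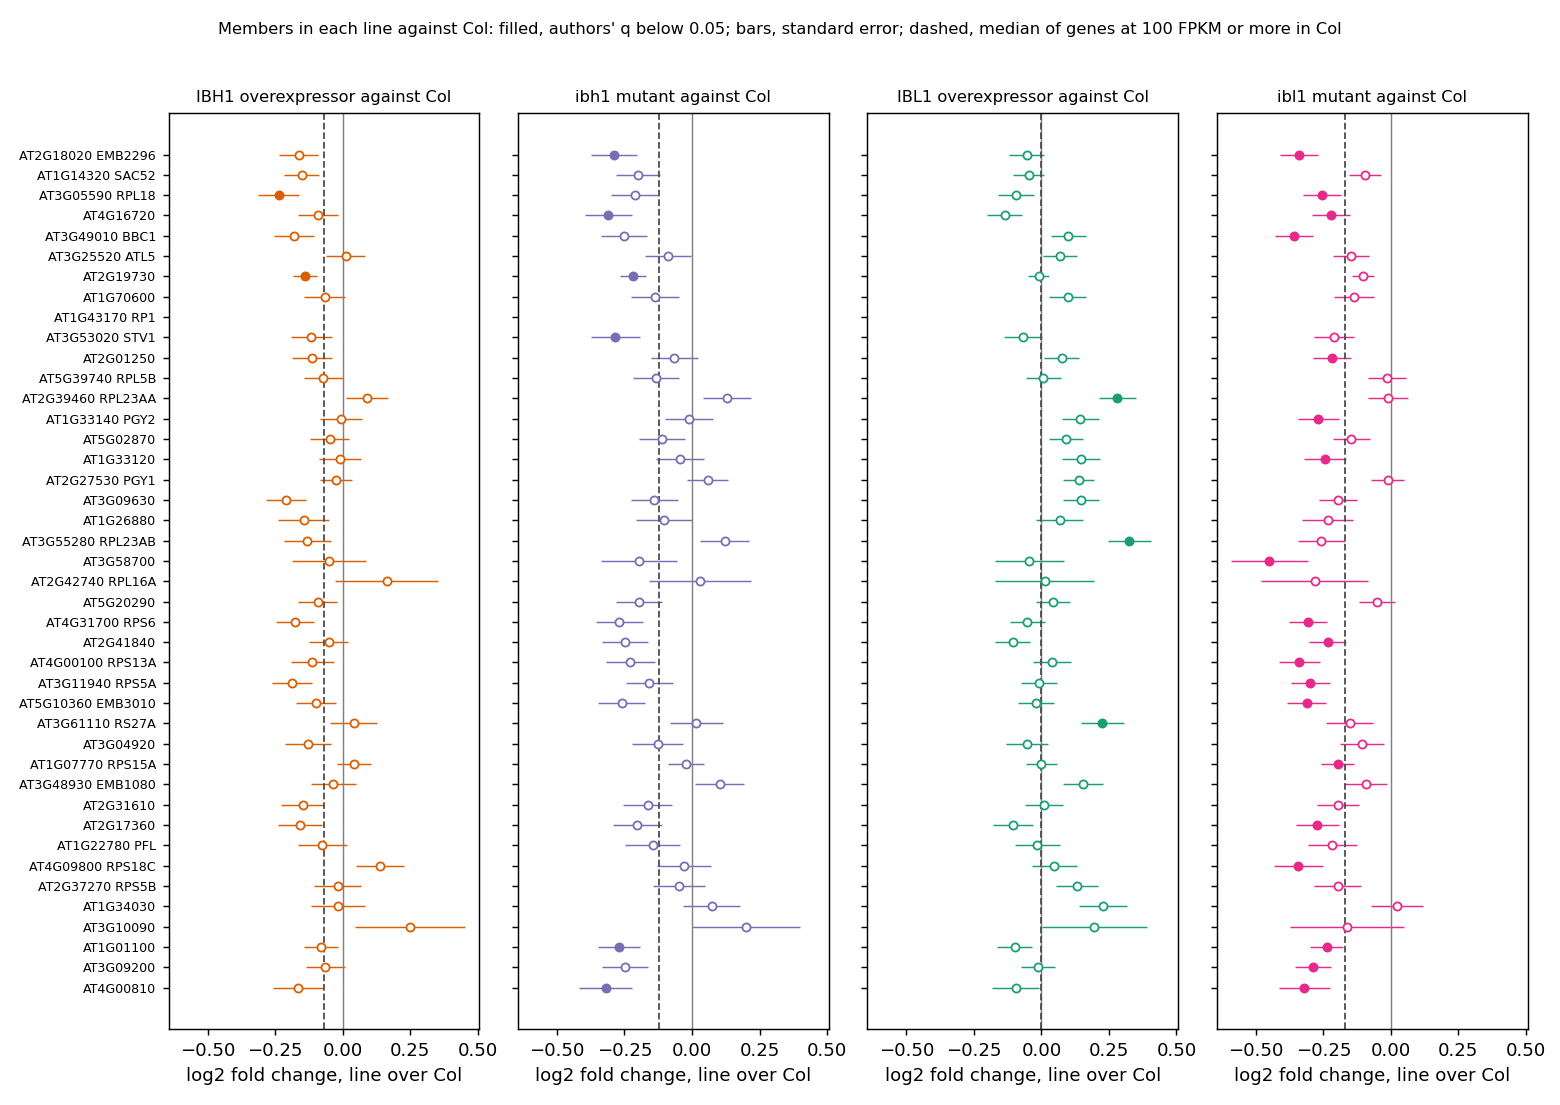
Log2 fold changes (line over Col) of the 41 tested genes in the 4 lines, with bars for the standard error computed from the authors' statistic. Filled points have an authors' q below 0.05, and the dashed line is the median of genes at 100 FPKM or more in Col, near which most points lie. Subtracting the median of all genes at 1 FPKM or more in the IBL1 overexpressor turns its calls from 3 higher to 7 lower, while subtracting that of genes at 100 FPKM or more keeps the 3.

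The 4 comparisons share the Col value of each gene, so similar values in 2 of them are not independent. Of the 42 genes, 18 were called in 0 comparisons, 18 in 1 and 6 in 2. The L4/L1 genes were among those not called: AT3G09630 was at 347, 300, 315, 385 and 303 FPKM and AT5G02870 at 455, 441, 421, 485 and 411 FPKM in the order used above. The L5 genes, which carry 5S ribosomal RNA, were not called either, with ATL5 at 687, 692, 646, 720 and 620 FPKM and RPL5B at 521, 496, 475, 523 and 516 FPKM. AT3G10090 was at 87.7, 104, 101, 100 and 78.3 FPKM. The other genes without a call are PGY1, AT1G70600, AT1G26880, AT2G31610, EMB1080 and AT3G04920, whose levels across genotypes lay between 277 and 729 FPKM. In RefSeq, AT1G26880 overlaps AT1G26890 on the opposite strand by 689 bases. Its deposited span ends at 9316729, short of its RefSeq end at 9318277. Whether the overlap lies in the counted span was not examined, and strand use in counting is not given, so its value is uncertain. RP1, the L3 gene, was at 661, 624, 652, 727 and 613 FPKM but failed the authors' test in all 4 tables and has no fold change or q.

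Lines were also compared directly, by a normal test of the difference of their fold changes with Benjamini-Hochberg adjustment over all genes in each of 6 comparisons. Col cancels in this difference, and the standard error is an upper limit. Between the IBL1 overexpressor and the ibl1 mutant, which differ in IBL1 dose, 9 of 41 genes were higher in the overexpressor and 0 lower, against 4.44% of all genes and 18.7% of genes at 100 FPKM or more in Col. The members' share of 22.0% was near the latter. All 41 differences were above 0, with a median of 0.25 beside 0.19 for all genes. RPL23AB differed most, at 241 FPKM in the overexpressor and 161 FPKM in the mutant (0.58 ± 0.12, adjusted p 9.59e-05 by the normal test). BBC1 was at 786 and 572 FPKM (0.46 ± 0.10, adjusted p 0.000165), PGY2 at 514 and 386 FPKM (0.41 ± 0.10, adjusted p 0.00252) and RPS13A at 631 and 486 FPKM (0.38 ± 0.10, adjusted p 0.0101) by the same normal test. The other 5 called genes were AT1G33120, AT3G09630, RPS18C, RS27A and EMB2296, with differences from 0.29 to 0.39. When fold changes were first centred on the median of genes at 1 FPKM or more, or on that of genes at 100 FPKM or more in Col, only RPL23AB of the 9 was called (adjusted p 0.0284 and 0.0200). Of all genes, 1.52% were called higher after the former centring.

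The other direct comparisons called few members. RPL23AB (-0.46 ± 0.12, adjusted p 0.00457) and AT3G09630 (-0.36 ± 0.10, adjusted p 0.00981) were lower in the IBH1 than in the IBL1 overexpressor by the normal test, against 4.08% of all genes. RPS18C was higher in the IBH1 overexpressor than in the ibl1 mutant (329 and 235 FPKM, 0.48 ± 0.13, adjusted p 0.00738 by the normal test), against 1.94% of all genes. BBC1 (-0.35 ± 0.11, adjusted p 0.0468) and AT2G19730 (-0.21 ± 0.06, adjusted p 0.0293) were lower in the ibh1 mutant than in the IBL1 overexpressor by the normal test, against 1.9% of all genes. Between the IBH1 overexpressor and the ibh1 mutant the normal test called 0 members, against 2.91% of all genes. At an unadjusted p under 0.05 it counted 1 member, against 9.85% of all genes. Between the ibh1 and ibl1 mutants it called 0 members, against 0.466% of all genes. At an unadjusted p under 0.05 it counted 3 there, against 4.34% of all genes. The members' differences ran from -0.25 to 0.22 in the former and from -0.15 to 0.38 in the latter, so neither comparison shows that the lines are alike. Centring on genes at 1 FPKM or more ended both calls between the overexpressors and both between the ibh1 mutant and the IBL1 overexpressor, and centring on genes at 100 FPKM or more in Col ended that of RPS18C, that of AT3G09630 and again those of BBC1 and AT2G19730.

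Over all genes, median fold changes differed by the level of a gene in Col. In the ibl1 mutant the median log2 fold change of all genes was -0.03 for those at 1 to 10 FPKM in Col, -0.08 at 10 to 100 FPKM, -0.15 at 100 to 300 FPKM, -0.19 at 300 to 1000 FPKM and -0.30 above that. The 33 tested members at 300 to 1000 FPKM had a median of -0.22 in the ibl1 mutant, beside -0.19 for the 441 genes of that level. In the ibh1 mutant the medians were -0.16 and -0.15, in the IBH1 overexpressor -0.10 and -0.09, and in the IBL1 overexpressor -0.00 and -0.01. The medians of the members and of all genes of that level were thus close in the 4 lines. The 441 genes include the members and other cytosolic ribosomal genes, so part of this closeness is the class set beside itself. The 8 tested members outside that bin did not follow the trend of all genes in the ibl1 mutant, with a median of -0.28 for 3 members at 10 to 100 FPKM, -0.23 for 4 at 100 to 300 FPKM and -0.05 for the member above 1000 FPKM. In the IBL1 overexpressor the members' medians in these bins were 0.01, 0.18 and 0.04, beside 0.09, 0.03 and -0.41 for all genes. The Col value enters both the bin and the fold change. The bins were chosen after the values were seen.

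**Figure D4:**
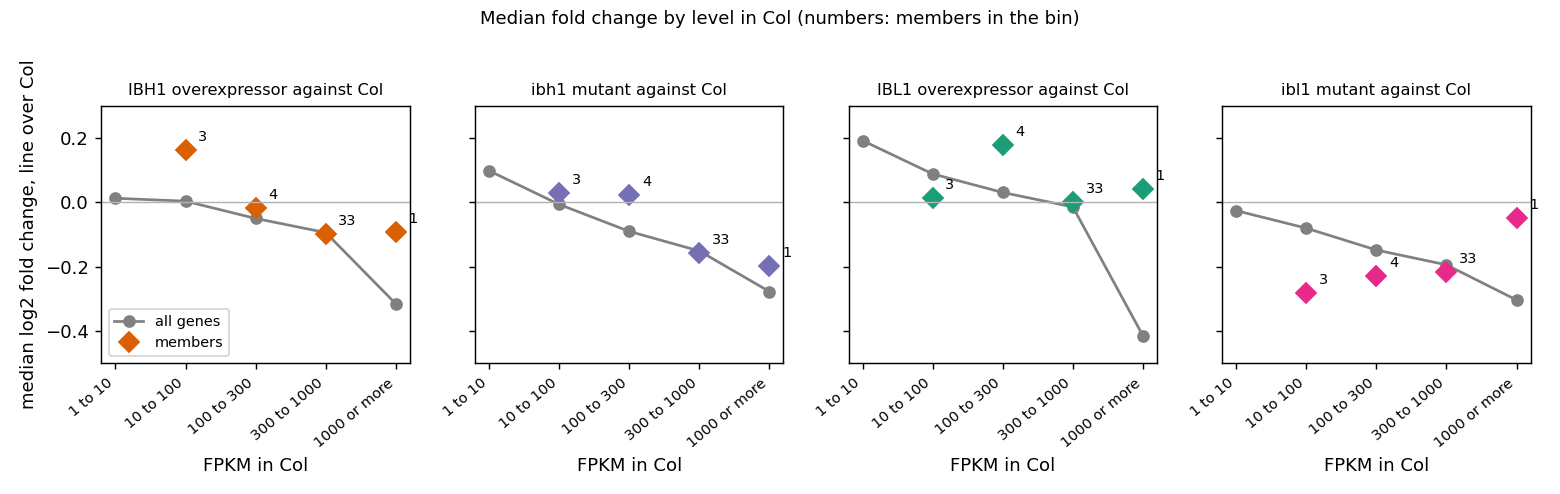
Median log2 fold change (line over Col, vertical axis) of all genes (grey line) and of the tested members (coloured diamonds, with their number) in 5 bins of the Col level (horizontal axis, FPKM). In the 300 to 1000 FPKM bin, which holds 33 members, the diamond lies near the grey line in the 4 lines. The grey line includes the members.

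The share of all summed FPKM taken by the 42 genes was 0.884% in Col, 0.817 and 0.987% in the IBH1 and IBL1 overexpressors, and 0.904 and 0.890% in the ibh1 and ibl1 mutants. A single feature, AT2G01021, held 52.0% of summed Col FPKM. Without the 10 highest genes of each genotype the members' share was 2.10% in Col, 2.10 and 2.29% in the IBH1 and IBL1 overexpressors, and 2.09 and 2.10% in the ibh1 and ibl1 mutants. On that basis the share in the ibl1 mutant equalled that of Col to 3 digits and the IBL1 overexpressor was the highest. No replicate spread exists for these shares.

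The other 185 cytosolic ribosomal protein genes, taken from a list of all families, gave a median below 0 in 3 of the 4 lines, as the 42 did. In the ibl1 mutant 48 of 174 tested fell and 0 rose, with a median of -0.18. That was 27.6%, near the 28.7% of genes at 100 FPKM or more in Col. AT4G15000, of the L27e family, fell from 922 to 732 FPKM (-0.33 ± 0.04, authors' q 3.23e-13) and AT5G18380, of the S16 group, from 1268 to 1031 FPKM (-0.30 ± 0.04, authors' q 1.21e-11) in the authors' deposited table. In the ibh1 mutant 19 of 174 fell (median -0.13), in the IBH1 overexpressor 11 of 173 (median -0.11), and in the IBL1 overexpressor 5 of 175 rose and 1 fell (median 0.04). Of genes at 100 FPKM or more in Col, 14.5 and 18.3% were called lower in the ibh1 mutant and IBH1 overexpressor. In the IBL1 overexpressor 15.6% of them were called higher and 21.1% lower. AT4G25890, an acidic-family gene, had the smallest q among them in the IBH1 overexpressor, falling from 165 to 99.5 FPKM (-0.73 ± 0.15, authors' q 2.68e-05, the authors' deposited table).

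Ribosomal proteins of the plastid, encoded in the nucleus for a separate ribosome, had other values in the IBL1 overexpressor. There 23 of 29 fell and 0 rose, against 21.1% of genes at 100 FPKM or more in Col called lower, with a median of -0.30, while the cytosolic members had a median of 0.01. RPL4 of the plastid (AT1G07320) fell from 482 to 356 FPKM (-0.44 ± 0.03, authors' q listed as 0) and EMB3126 (AT3G63490), the plastid L1 gene, from 514 to 361 FPKM (-0.51 ± 0.07, authors' q 1.45e-12) in the authors' deposited table. Plastid genes called lower numbered 5 of 29 in the IBH1 overexpressor, 9 of 29 in the ibh1 mutant and 12 of 29 in the ibl1 mutant. These are 17.2, 31.0 and 41.4%, beside 18.3, 14.5 and 28.7% of genes at 100 FPKM or more in Col. The difference between the plastid and cytosolic lists was not tested.

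Translation factors fell in the ibl1 mutant in 11 of 25 tested cases, with 0 higher and a median of -0.24. Beside this, 4.4% of all genes and 28.7% of genes at 100 FPKM or more in Col were called lower there. EIF4A1, the initiation helicase, went from 394 to 319 FPKM (-0.30 ± 0.04, authors' q 9.36e-13) and the elongation factor gene AT5G60390 from 1782 to 1472 FPKM (-0.28 ± 0.06, authors' q 0.00106) in the authors' deposited table. In the IBL1 overexpressor 3 of 25 rose, among them EIF4A-2 (0.37 ± 0.08, authors' q 0.000162, the authors' deposited table). Called higher in that line were 10.3% of all genes and 15.6% of genes at 100 FPKM or more in Col. Of 13 ribosome biogenesis genes 2 fell in the ibl1 mutant, the rRNA methylation gene FIB1 (-0.35 ± 0.09, authors' q 0.00271) and the pseudouridine synthase gene NAP57 (-0.29 ± 0.09, authors' q 0.0430) in the authors' deposited table, and 1 rose in the IBL1 overexpressor. Of 5 TOR pathway genes, S6K2 alone was called, higher in the IBL1 overexpressor (10.1 to 19.8 FPKM, 0.97 ± 0.18, authors' q 3.23e-06, the authors' deposited table). The biogenesis and TOR counts stand beside the same shares of all genes, 4.4% lower in the ibl1 mutant and 10.3% higher in the IBL1 overexpressor. Calls after centring are not given for these lists.

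**Figure D5:**
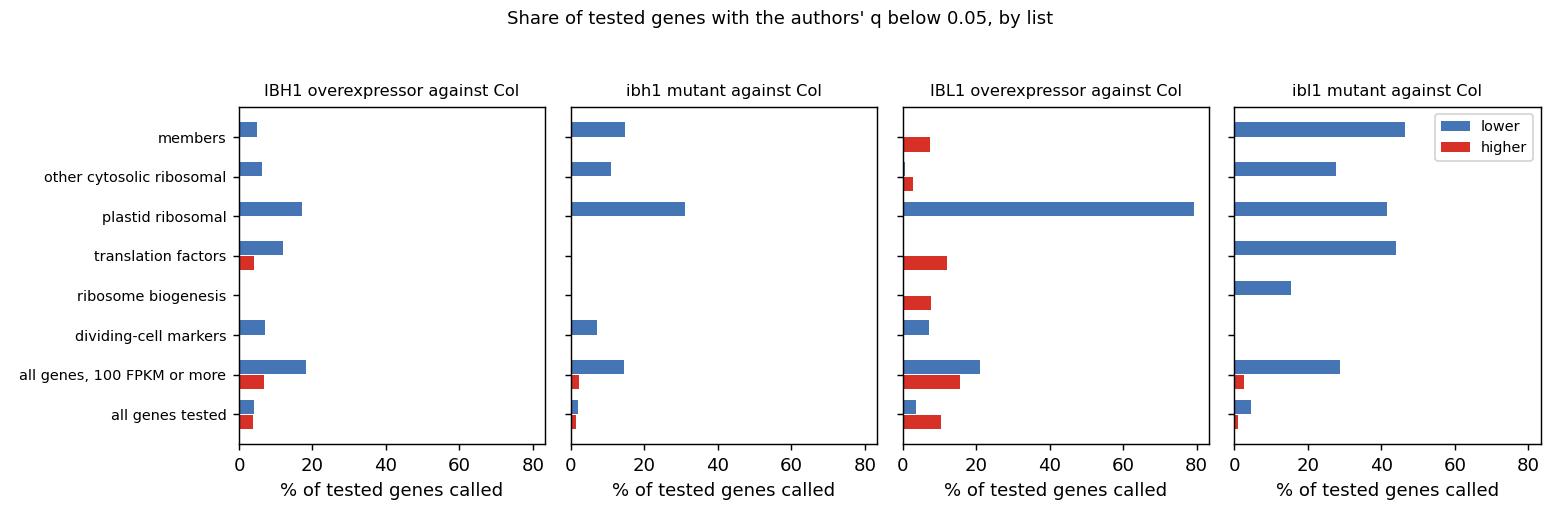
Percentage of tested genes called lower (blue) or higher (red) at an authors' q below 0.05 (horizontal axis) for each gene list in the 4 lines. In the IBL1 overexpressor plastid ribosomal genes reach 79.3% lower. In the ibl1 mutant the 41 tested members reach 46.3% lower beside 28.7% of all genes at 100 FPKM or more, near which the other cytosolic ribosomal genes lie. The members' lower calls there are lost when centred on genes at 100 FPKM or more in Col. In the IBL1 overexpressor the members' higher calls are lost when centred on genes at 1 FPKM or more but not on those at 100 FPKM or more.

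The summed level of 14 dividing-cell markers was 339 FPKM in Col, 270 FPKM in the IBH1 overexpressor, 298 FPKM in the ibh1 mutant, 304 FPKM in the IBL1 overexpressor and 302 FPKM in the ibl1 mutant, with 0 markers at 0 in any genotype. CDC20.1 was called lower in the IBH1 overexpressor and the ibh1 mutant, and the KNOLLE gene SYP111 in the IBL1 overexpressor. In the ibl1 mutant, where more members were called than in the other lines, 0 of 14 markers were called by the authors' Cuffdiff q, against 5.45% of all genes. Their part in the members' values was not tested.

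The 250 bases before the annotated gene start were searched for a pair of motifs known from plant ribosomal protein promoters. Site II elements (TGGGCC or TGGGCT, either strand) were present in 29 of 42 members (69.0%), in 69.2% of the other cytosolic ribosomal genes, in 33.3% of protein-coding genes at 100 FPKM or more in Col and in 19.2% of all protein-coding genes. The telo box AAACCCTA, either strand, was present in 5 of 42 members (11.9%), 24.3% of the other cytosolic genes and 4.49% of all. Of the 19 members that fell in the ibl1 mutant 17 had at least 1 site II match, as had 12 of the other 23 genes. Those ibl1 calls were lost when centred on genes at 100 FPKM or more in Col. RPL23AA, RPL23AB and RS27A, called higher in the IBL1 overexpressor except when centred on genes at 1 FPKM or more, had 0 matches. RPS13A and RPS18C, which fell in the ibl1 mutant, had neither motif. These are descriptions of letters in a window, and no test was made.

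The windows of BBC1 and EMB2296, which fell in the ibl1 mutant, and of both L23a genes, called higher in the IBL1 overexpressor except when centred on genes at 1 FPKM or more, are printed as examples with and without matches, chosen after their values were seen. They come from RefSeq TAIR10.1 and are read 5′ to 3′ on the gene's strand, with site II and telo box matches in capitals. The positions are chr3:18168701-18168950 on the minus strand for BBC1, chr2:7836817-7837066 on the plus strand for EMB2296, chr2:16473899-16474148 on the plus strand for RPL23AA and chr3:20499984-20500233 on the plus strand for RPL23AB. BBC1 holds 3 site II matches and 1 telo box, EMB2296 holds 2 site II matches, and the L23a windows hold neither.
BBC1: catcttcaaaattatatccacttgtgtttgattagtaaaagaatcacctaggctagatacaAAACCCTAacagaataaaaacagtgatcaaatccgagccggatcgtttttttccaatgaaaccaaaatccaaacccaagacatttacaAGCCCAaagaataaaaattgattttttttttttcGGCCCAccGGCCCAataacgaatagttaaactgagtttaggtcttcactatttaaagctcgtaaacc
EMB2296: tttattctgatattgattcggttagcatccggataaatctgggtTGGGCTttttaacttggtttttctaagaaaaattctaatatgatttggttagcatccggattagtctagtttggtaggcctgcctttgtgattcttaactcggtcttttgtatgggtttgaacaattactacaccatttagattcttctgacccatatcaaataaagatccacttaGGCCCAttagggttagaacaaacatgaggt
RPL23AA: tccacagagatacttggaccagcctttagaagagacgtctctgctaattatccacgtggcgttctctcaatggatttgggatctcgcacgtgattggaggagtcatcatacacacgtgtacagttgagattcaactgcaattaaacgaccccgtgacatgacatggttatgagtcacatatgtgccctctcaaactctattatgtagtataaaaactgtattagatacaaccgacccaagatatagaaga
RPL23AB: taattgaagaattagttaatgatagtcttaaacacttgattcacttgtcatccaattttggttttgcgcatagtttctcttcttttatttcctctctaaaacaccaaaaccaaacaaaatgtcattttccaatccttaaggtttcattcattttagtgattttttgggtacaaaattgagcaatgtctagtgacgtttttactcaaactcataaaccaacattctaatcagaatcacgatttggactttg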

How the data were processed

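Poly(A) RNA sequencing covered 10 libraries, 2 in each of 5 genotypes. Base calls came from CASAVA 1.8.2, alignment to TAIR10 from TopHat 1.4.1 and testing from Cuffdiff, per the submitters' processing notes. The Cuffdiff version, gene models, strand setting and scaling: not given in the sources used here. Each of 4 deposited tables sets a line against Col, with 1 FPKM value per group made by the authors from their libraries, and depth is unknown. The authors' log2 fold change and test statistic are columns named so per the file headers, treated here as scores since the authors' columns hold infinite values, and their p-value and q-value follow, the q-value being Benjamini-Hochberg over genes the authors could test. From these the sign was turned to line over Col, and the standard error was taken as the log2 fold change divided by the statistic. A call needs a q below 0.05. Lines were compared by a normal test of the difference of their fold changes, whose squared errors were added. Alternatives subtracted the median fold change of genes that reached 1 FPKM in the line and in Col, or at 100 FPKM or more in Col, used a q of 0.01, a minimum of 10 FPKM or a pseudocount of 1, or left out members with a protein at least 95% identical to another. The test of differences was run on simulated data for the IBL1 overexpressor and ibl1 mutant only, with centring on genes at 100 FPKM or more in Col. The simulated noise was drawn from the standard errors that the test itself uses. That simulation therefore cannot check those errors, the spread between libraries or the authors' calls against Col.

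The gene lists, too, were chosen with earlier results of these data known. AT2G33800 and AT5G15550 were dropped from lists because their annotation named another function. Values were given for called members (the 20 with the smallest q), the 3 highest and 3 lowest in Col, and families with several members. AT2G01250, STV1 and RS27A, and the examples from other lists, were named after their values were seen. Names, sequences and overlaps came from the RefSeq annotation of TAIR10.1, in which 31294 of 34047 identifiers were found. Of the 42 members, 1 had the same span there as in the deposited data. Python 3.11.15, pandas 2.3.3, numpy 2.4.6, scipy 1.17.1, matplotlib 3.10.9, biopython 1.88 and blastp 2.17.0 were used.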

Additional observations from a re-analysis of the deposited data

How the results depend on the processing

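No paired analysis was possible because the tables hold 1 value per group, and leaving out a replicate could not be run for the same reason. Centring on genes at 100 FPKM or more in Col left 0 members called in the IBH1 overexpressor, the ibh1 mutant and the ibl1 mutant against Col, moved the medians to -0.018 in the ibh1 and -0.047 in the ibl1 mutant, and left 1, 0, 0 and 1 calls between the IBH1 and IBL1 overexpressors, the IBH1 overexpressor and ibl1 mutant, the ibh1 mutant and IBL1 overexpressor, and the IBL1 overexpressor and ibl1 mutant. Centring on genes at 1 FPKM or more reversed the IBL1 overexpressor against Col, to 7 lower and a median of -0.10, left 7 calls in the ibl1 mutant, and left 0, 0 and 1 between the overexpressors, the ibh1 mutant and IBL1 overexpressor, and the IBL1 overexpressor and ibl1 mutant. In these comparisons between lines, 5.1, 2.07 and 3.35% of all genes were called in either direction after that centring. At a q below 0.01 the calls against Col were 0 for the IBH1 overexpressor, 1 for the ibh1 mutant and 9 for the ibl1 mutant, with 0 between the ibh1 mutant and IBL1 overexpressor and 4 between the IBL1 overexpressor and ibl1 mutant. Without members near-identical to another gene, 16 tested genes remained, with 1, 3 and 7 calls in the IBH1 overexpressor, the ibh1 mutant and the ibl1 mutant, and 1, 0 and 3 calls between the overexpressors, the IBH1 overexpressor and ibl1 mutant, and the IBL1 overexpressor and ibl1 mutant. Here fewer genes were counted by construction. A minimum of 10 FPKM raised the last of these comparisons from 9 to 15 calls. Shares of all genes are not given for the q below 0.01, for the minimum of 10 FPKM, or between lines after centring on genes at 100 FPKM or more. Those counts are therefore not read as results about the members. Leaving out the 10 highest genes raised the members' shares to 2.10, 2.10, 2.09, 2.29 and 2.10%. The cause was not tested for the other changes. The IBL1 overexpressor against Col kept its 3 higher calls when centred on genes at 100 FPKM or more. No value called against Col changed sign under either centring, but each lay farther from 0 than the median subtracted, so none could. Among all 41 tested members 11, 9, 1 and 13 changed sign under the centring on genes at 100 FPKM or more in the IBH1 overexpressor, ibh1 mutant, IBL1 overexpressor and ibl1 mutant, and 0, 0, 12 and 4 under that at 1 FPKM or more. Depth and spread between libraries are unknown, which limits every value.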
